A study of Danio rerio with 2 samples.

Results

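Cholecystokinin (CCK) is a peptide of gut and brain, best known for ending meals and for releasing digestive enzymes. Its precursor is cut by prohormone convertases, sulphated and amidated, stored in dense-core granules, and released to act on CCK receptors, which are G protein-coupled receptors. In the brain it is made by many kinds of neuron, often beside a fast transmitter such as GABA or glutamate, and in fish the hypothalamus is a known site of its production. The cells described here are those in the hypothalamus of adult zebrafish that carried many transcripts of the CCK precursor gene ccka (ENSDARG00000070810). A member had at least 1000 unique molecular identifiers (UMIs, counted transcripts) and at least 10 ccka UMIs that also made up at least 0.1% of its UMIs. Members were thus chosen by their measured ccka level and their depth. This rule found 213 members among the 8330 barcodes of that depth in the CCK1/2-KO library and 264 among 6892 in the WT library, so 477 of 15222 in all.

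The CCK1/2-KO fish were cck1-/-;cck2-/- double mutants made with CRISPR/Cas9, and the WT fish carried neither edit. All were males of 6 months. Hypothalami of 30 fish per genotype were pooled, dissociated with trypsin, EDTA and DNase II, and made into 1 droplet library, in which transcripts were primed at their poly(A) tail. With 1 library per genotype there is no replicate spread and no test between genotypes: genotype, pool, dissociation and library run cannot be told apart, and every interval given covers counting error only. Cells of a pool share their source and are not replicates. A total of 52 barcode sequences occurred in both libraries, among them 0 of the CCK1/2-KO and 3 of the WT members. Scrublet, which scores barcodes that may hold more than 1 cell, marked 20 CCK1/2-KO members (9.39%) and 22 WT members (8.33%), against 9.2% and 7.43% of all barcodes of that depth.

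The members looked like neurons by their markers. Of them, 206 in CCK1/2-KO and 247 in WT carried at least 3 of 20 pan-neuronal genes with at least 5 UMIs together. Among the 7 CCK1/2-KO and 17 WT members that did not, 4 and 8 had at least 1% of their UMIs from astroglial genes other than cyp19a1b. Members were compared with ccka-free neurons, which passed the same neuronal rule with 0 ccka UMIs and numbered 4797 in CCK1/2-KO and 3542 in WT. The median depth was 7964 UMIs in CCK1/2-KO members and 6502 in WT members, against 6047 and 6984 in the ccka-free neurons of the same libraries. The order of depth between members and ccka-free neurons therefore differed between the libraries.

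Fewer CCK1/2-KO than WT barcodes were members. They made up 2.56% (2.23 to 2.92) of the CCK1/2-KO barcodes and 3.83% (3.39 to 4.31) of the WT barcodes, a ratio of 0.668 with a Katz interval from 0.559 to 0.797. Shares here carry exact Clopper-Pearson 95% intervals. Over barcodes that passed the neuronal rule, the shares were 3.63% in CCK1/2-KO and 5.23% in WT, with a ratio of 0.693 (0.578 to 0.830). The direction was therefore the same with non-neuronal barcodes left out. Since the rule counts ccka, a lower level per cell and fewer cells both lower this number, and the count does not separate them.

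The ccka level per member was lower in CCK1/2-KO as well. Members had 10, 22 and 203 ccka UMIs (lowest, median and highest) in CCK1/2-KO and 10, 32.5 and 1201 in WT. As a share of the barcode's UMIs, ccka took 0.109%, 0.330% and 2.16% in CCK1/2-KO members and 0.101%, 0.545% and 5.2% in WT members. The whole CCK1/2-KO range lay within the WT range, and the highest values were in WT. At least 1% of the UMIs were ccka in 4 CCK1/2-KO members (1.88%) and 53 WT members (20.1%), and at least 100 ccka UMIs were found in 8 and 31. Pooled over members, ccka stood at 3462 counts per 1000000 UMIs (CPM) in CCK1/2-KO and 7453 CPM in WT, a log2 ratio of −1.11 (−1.15 to −1.07). Some of this lay in few barcodes: the 3 highest members held 7.44% of the members' ccka in CCK1/2-KO and 18.9% in WT, and without them the log2 ratio was −0.92. These values describe what the rule chose and are not tested. Where the reads lie relative to the edited sites was not determined, so the ccka level does not check the genotype label. The second ligand gene that was edited is not analysed here.

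**Figure D1:**
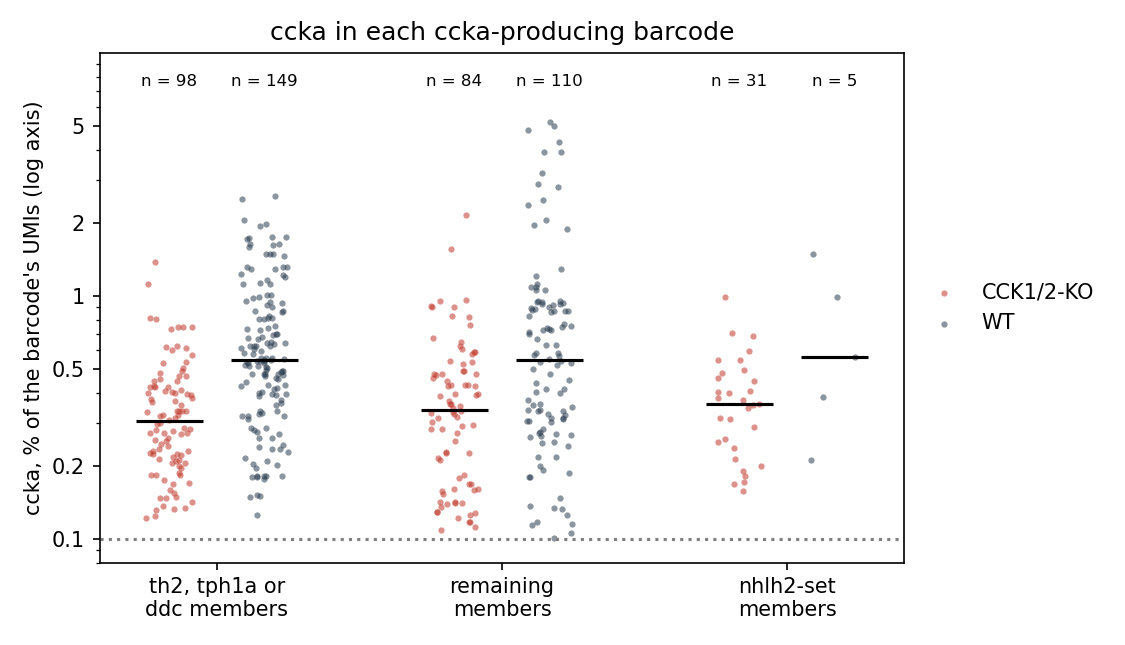
ccka as a percent of each member's UMIs (log axis), 1 point per member, for 3 sets of members with CCK1/2-KO left of WT in each. Black bars are medians and the dotted line is the 0.1% limit of the rule. The CCK1/2-KO medians are 0.306%, 0.341% and 0.358% from left to right, below the WT medians of 0.544%, 0.545% and 0.561%, and the WT points reach 5.2%.

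The limits of the rule cut through a continuous range. Just inside, the lowest ccka share of a member was 0.109% in CCK1/2-KO and 0.101% in WT. Just outside, the highest share among barcodes with 10 or more ccka UMIs was 0.0998% in CCK1/2-KO, where 20 such barcodes missed the limit, and 0.0943% in WT, where 14 did. Members held 74.7% of all ccka UMIs of the CCK1/2-KO library and 83.5% of those of the WT library. At least 1 ccka UMI was found in 13.3% of CCK1/2-KO and 22.6% of WT barcodes of at least 1000 UMIs, with median depths of 4986 and 5458.5 UMIs. Barcodes with at least 10% of UMIs from red blood cell genes, which should lack ccka, had 1 in 4.64% (CCK1/2-KO) and 15.8% (WT), at median depths of 1461 and 1453 UMIs and at 16.7 and 82.8 CPM. They include 2 WT members and 0 CCK1/2-KO members, so part of the WT level comes from members. A few ccka UMIs therefore do not mark a producing cell in these libraries, least of all in WT.

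Most members carried GABAergic markers. A barcode was called GABAergic with 2 or more UMIs of gad1a, gad1b, gad2 and slc32a1 (the enzymes that make GABA and its vesicular transporter) and glutamatergic with 2 or more UMIs of the vesicular glutamate transporters (slc17a6a, slc17a6b, slc17a7a, slc17a7b and slc17a8). GABAergic markers alone were found in 62.4% (55.6 to 69.0) of CCK1/2-KO members and 61.7% (55.6 to 67.6) of WT members, against 37.5% and 37.4% of ccka-free neurons. Glutamatergic markers alone were found in 5.16% and 4.17% of CCK1/2-KO and WT members, against 17.1% and 16.6% of ccka-free neurons. With every barcode thinned to 1000 UMIs and 1 UMI asked for, GABAergic markers alone stood at 53.5% and 54.2% in CCK1/2-KO and WT members, against 37.6% and 37.1% of ccka-free neurons. The 2 libraries therefore differed little in the GABAergic share of members. Both classes of marker were found in 14.1% of CCK1/2-KO members (30 barcodes) and 5.30% of WT members (14 barcodes), and neither in 18.3% and 28.8%. After thinning, both classes were found in 1.41% (3 barcodes) and 1.89% (5 barcodes), and neither in 40.4% and 41.7%. So few double markers are left at 1000 UMIs that thinning cannot show whether their gap follows from depth. Of the unthinned members with both classes, 20 of 30 in CCK1/2-KO and 1 of 14 in WT lay in the nhlh2 set described later. Among red blood cell barcodes, 3.84% in CCK1/2-KO and 3.36% in WT had 2 or more gad2 UMIs. Their median depths were 1461 and 1453 UMIs, against 7964 and 6502 in members, so these shares are not matched for depth.

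**Figure D2:**
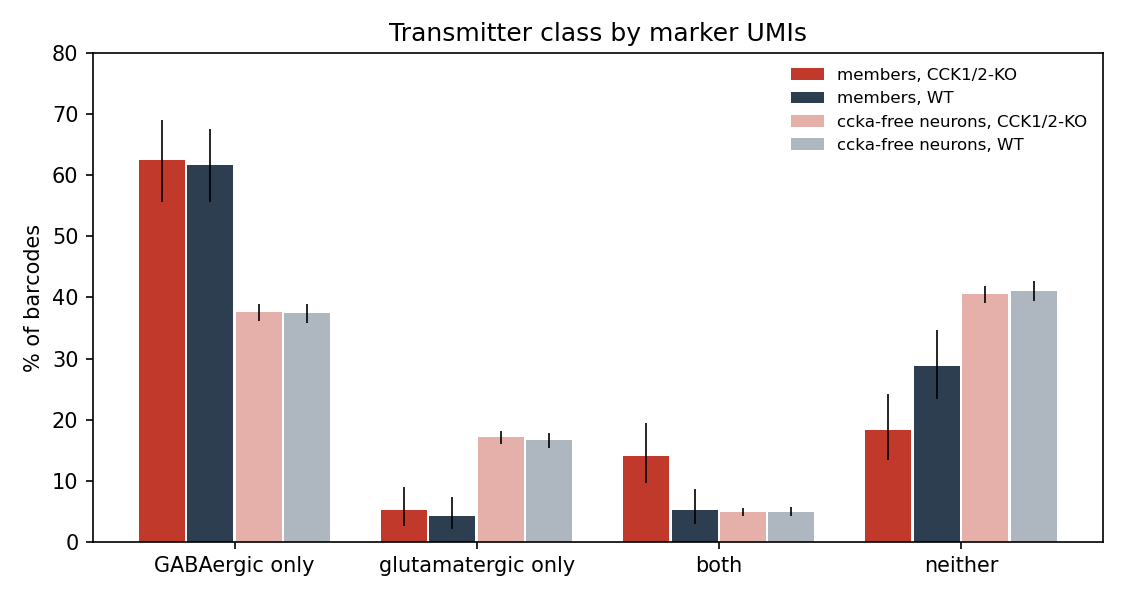
Percent of barcodes in each transmitter class, for members (dark) and ccka-free neurons (pale), with CCK1/2-KO left of WT within each. Bars show shares and lines exact 95% intervals, which cover counting error only. GABAergic-only members stand at 62.4% in CCK1/2-KO and 61.7% in WT, above the 37.5% and 37.4% of ccka-free neurons. Barcodes were not thinned here. Members with both classes stand at 14.1% and 5.30%. Thinned to 1000 UMIs, which leaves few double markers, they stand at 1.41% and 1.89%.

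By level, gad2 stood at 1417 CPM in CCK1/2-KO neuronal members and 1420 CPM in WT ones, against 1184 and 1130 CPM in ccka-free neurons, a log2 ratio of 0.26 and 0.33. The transporter slc32a1 was 0.70 and 0.65 higher on that scale, and slc17a6b was −0.49 in CCK1/2-KO and −0.94 in WT. None of these passed the 2-fold size used as a call in both libraries. Of 3 measured vesicular glutamate transporter genes, slc17a6a was called lower and 0 were called higher. A call here is a rule of size only: the log2 ratio of pooled CPM, with 5 CPM added to both sides, past 1 in the same direction in both libraries. Of 14050 genes measured well enough, 122 were called higher in members than in ccka-free neurons, which is 0.868%, and 498 lower, which is 3.54%. In CCK1/2-KO alone 1.78% were past the limit upward and 6.06% downward, and in WT alone 2.31% and 5.77%. The median log2 ratio over all these genes was −0.10 in CCK1/2-KO and −0.11 in WT. Log2 ratios printed for single genes have no added CPM.

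Enzymes of amine synthesis were among the genes higher in members. Of 8 measured genes of the monoaminergic, cholinergic and glycinergic list, 4 were higher and 0 lower, and the list median was 1.33 in CCK1/2-KO and 1.66 in WT. The dopa decarboxylase gene ddc, which makes dopamine and serotonin from their precursors, stood at 253 CPM in CCK1/2-KO members and 382 CPM in WT members, against 65.9 and 55.4 CPM in ccka-free neurons. Its log2 ratio was 1.94 and 2.79. The amine synthesis gene th2, named for tyrosine hydroxylase, was at 516 and 667 CPM in CCK1/2-KO and WT members, against 183 and 149 CPM. Its log2 ratios were 1.5 and 2.16. The tryptophan hydroxylase gene tph1a, the first step toward serotonin, was at 494 and 786 CPM in members, against 197 and 196 CPM, with log2 ratios of 1.33 and 2.01. Its paralog tph1b was 1.96 and 3.29 higher on the log2 scale. The vesicular monoamine transporter slc18a2 reached 0.80 in CCK1/2-KO and 1.39 in WT, so it was past the limit in WT alone. These genes thus lay on the same side in both libraries. In zebrafish, th2 and tph1a are known from amine neurons around the posterior hypothalamic ventricle that contact the cerebrospinal fluid, many of which also hold GABA markers.

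The 15 named genes were those with the highest ratios, each found in at least 10% of members of both libraries. The strongest in the weaker library was pnocb, the precursor of a nociceptin-like opioid peptide, at 326 CPM in CCK1/2-KO and 449 CPM in WT members, against 31.7 and 44.5 CPM in ccka-free neurons. The decoy receptor gene tnfrsf11b (osteoprotegerin) followed, with 208 and 258 CPM in CCK1/2-KO and WT members, against 15.8 and 31.6 CPM. The metabotropic glutamate receptor grm6a, known from retinal ON bipolar cells, had a UMI in 46.6% of CCK1/2-KO and 55.1% of WT neuronal members, against 10.8% and 13.0% of ccka-free neurons. Genes of calcium and vesicle handling were in this group. Secretagogin (scgn), a calcium-binding protein of secretory cells, was 2.37 and 3.04 higher on the log2 scale in CCK1/2-KO and WT. Otoferlin (otofa), a calcium sensor of vesicle release in hair cells, was 2.07 and 2.55 higher. The others with a described role were the retinoic acid-binding crabp1a (2.28 in CCK1/2-KO and 2.63 in WT), the enkephalin precursor penkb (2.13 and 3.23), the dopamine receptor drd2a (2.32 and 3.07), the glutamate transporter slc1a7b (3.12 and 2.34), the photoreceptor matrix gene eys (2.35 and 2.70) and the pseudokinase trib1 (2.12 and 2.81). A crabp1a UMI was found in 29.6% of CCK1/2-KO and 19.8% of WT neuronal members, against 25.1% and 16.0% of ccka-free neurons. Its gap was thus more one of level than of the share of barcodes. In CCK1/2-KO and WT, 3 barcodes held 46.8% and 27.7% of the members' crabp1a UMIs, and 46.7% and 49.1% of their penkb UMIs. The remaining 4 names, si:ch211-131k2.2, si:ch211-153f2.7, si:ch73-208h1.4 and si:dkey-22o22.2, are locus names, with log2 ratios from 2.07 to 2.74 in CCK1/2-KO and 2.14 to 3.15 in WT.

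**Figure D3:**
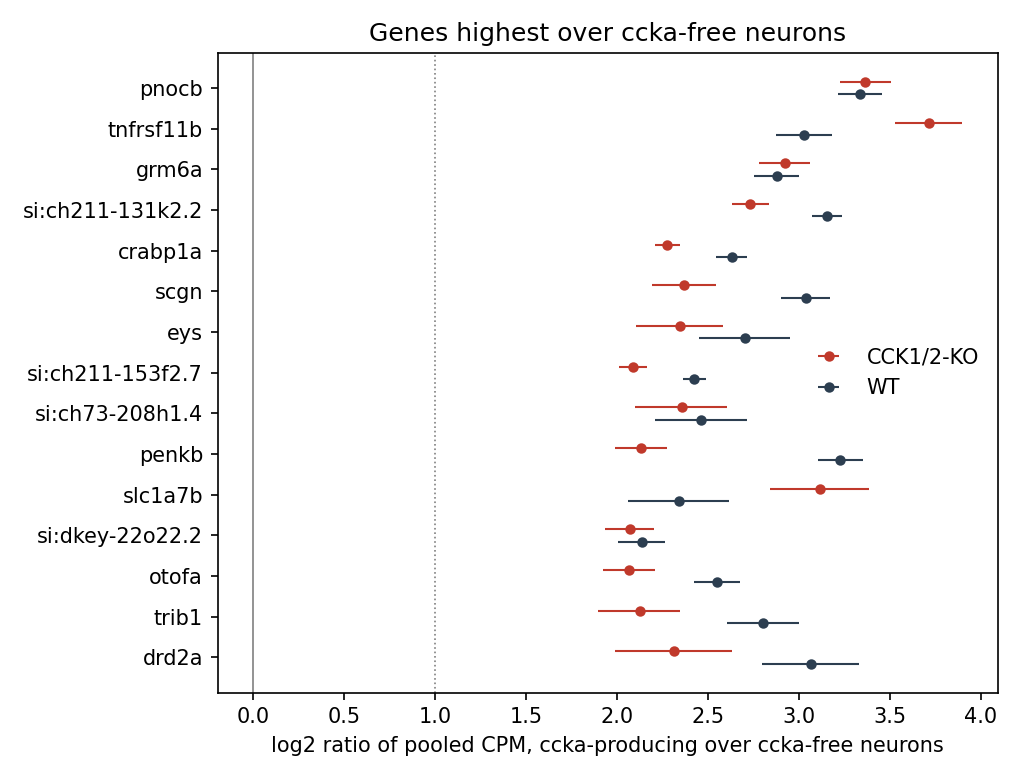
Log2 ratio of pooled CPM, members over ccka-free neurons, for the 15 named genes, with CCK1/2-KO above WT for each gene. Points are ratios and lines exact Poisson intervals, which cover counting error only; the dotted line marks 2-fold. All 15 lie beyond 2-fold in both libraries, from pnocb at 3.37 in CCK1/2-KO and 3.34 in WT to drd2a at 2.32 and 3.07.

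Part of the machinery for peptide hormones was also higher. Of 15 measured genes for peptide processing and secretory granules, 4 were higher and 0 lower, with list medians of 0.70 in CCK1/2-KO and 0.40 in WT. The convertase pcsk2, which cuts precursors at basic residues, was 1.31 and 1.36 higher on the log2 scale in CCK1/2-KO and WT. The granins chgb (1.48 and 2.01) and scg3 (1.42 and 1.67), which build dense-core granules, and cadpsa (1.49 and 1.46), which primes them for release, were the others. These 4 genes were highest in the th2, tph1a or ddc set described later. In CCK1/2-KO and WT, scg3 stood at 2927 and 2833 CPM there, against 473 and 292 CPM in the remaining members. For pcsk2 it was 307 and 251 against 52.3 and 37.9 CPM, and for cadpsa 1010 and 1204 against 402 and 233 CPM. For chgb it was 4280 and 4826 against 76.7 and 92.8 CPM. As log2 ratios over ccka-free neurons, the convertase pcsk1 was at 0.02 and 0.41, the carboxypeptidase cpe at 0.77 and 0.40, and the amidating enzyme pam at 0.71 and 0.45. The granin scg2b was at 0.93 in CCK1/2-KO and −0.24 in WT, and chga at 0.72 and −0.24. The tyrosylprotein sulphotransferase tpst1, whose enzyme family sulphates peptides, was at 0.20 in both libraries, and tpst1l at −0.08 and −0.25. The other measured members were cadpsb at −0.15 and −0.24, pcsk1nl, an inhibitor of pcsk1, at 0.73 and 0.64, qpct at 0.78 and 0.87, and ctsla at −0.07 and −0.86. The convertase chaperone scg5 had 0.499 CPM in CCK1/2-KO and 44.4 CPM in WT members, and 0.817 and 23.6 CPM in the ccka-free neurons of the same libraries, so this gap was not particular to members. The genes tpst2, qsox1 and ctsl.1 stayed under 2 CPM in the members of both libraries.

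Other peptides were divided. Of 44 measured genes of the neuropeptide list, 5 were higher (penkb, pnocb, vip, uts1 and chgb) and 9 lower (avp, agrp, pomca, gal, pmchl, npvf, pdyn, nmu and c16h2orf66). The list is wider than neuropeptides, and chgb is the granin already counted among the processing genes. The lower genes include precursors of the feeding circuit, agrp and pomca, and pdyn, the dynorphin precursor, at −4.51 in CCK1/2-KO and −3.18 in WT. The melanin-concentrating hormone gene pmchl had 50.9 and 112 CPM in CCK1/2-KO and WT members, against 2129 and 2858 CPM in ccka-free neurons. A pmchl UMI was found in 34.5% and 55.1% of neuronal members and in 30.1% and 61.1% of ccka-free neurons. The gap was thus one of level and not of the share of barcodes with pmchl. Of 76 measured hypothalamic transcription factors, 5 were higher and 8 lower. The higher ones were lhx9 (1.45 in CCK1/2-KO and 2.41 in WT), lhx1a (1.63 and 1.12), the GABA-lineage factor dlx6a (1.46 and 1.79), pou3f1 (1.24 and 2.35) and insm1a (1.34 and 1.2), a factor of neuroendocrine cells. The lower ones included nr5a1b, whose mammalian counterpart marks the ventromedial hypothalamus, and isl1a. Of 30 factors of the telencephalon, thalamus and other regions, 0 were higher and 9 were lower, among them neurod1, neurod2, neurod6a, neurod6b and tcf7l2. Of 26 receptors for steroid and feeding hormones, esr1 alone was higher and 0 were lower. It lay in few members. By the 3 sets described later, the 98 CCK1/2-KO and 149 WT members with th2, tph1a or ddc had 2 and 7 esr1 UMIs. The 31 and 5 nhlh2-set members had 51 and 43, in 10 and 4 barcodes. The 84 and 110 remaining members had 13 and 54, in 5 and 11 barcodes.

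Marker genes of other cell types were among those lower in members. Among the 10 named were the myelin genes plp1b (log2 −3.51 in CCK1/2-KO and −4.93 in WT), mpz (−3.49 and −4.92) and mbpa (−3.01 and −3.93). Besides pmchl and pdyn, the others were rgcc, dhrs12la, clic2, cd59b and hs3st2, at −4.2 to −3.01 in CCK1/2-KO and −4.43 to −3.74 in WT. Of 12 measured oligodendrocyte genes 10 were lower, as were 6 of 13 astroglial, 5 of 7 immune, 5 of 8 vessel and 5 of 7 red blood cell genes. The summed oligodendrocyte list stood at 361 and 201 CPM in CCK1/2-KO and WT members, against 2972 and 4017 CPM in ccka-free neurons. The summed astroglial list stood at 2798 and 5097 CPM in members, against 7397 and 8381 CPM. The ccka-free neurons thus held more RNA of other cells than members did in both libraries, and its part in the genes called lower was not tested.

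The members fell apart into sets by genes that seldom met. These sets were drawn after the values were seen and are a description. The first set had 2 or more UMIs of th2, tph1a or ddc, without 4 CCK1/2-KO members (0 in WT) that also met the rule of the nhlh2 set described later, and held 98 CCK1/2-KO members (46.0%, 39.2 to 53.0) and 149 WT members (56.4%, 50.2 to 62.5). Within all members, th2 and tph1a lay apart in WT but not clearly in CCK1/2-KO. Both reached 2 UMIs in 12 CCK1/2-KO and 3 WT members. In that order, th2 reached it without tph1a in 49 and 80, and tph1a without th2 in 37 and 63. In CCK1/2-KO, 12 of the 61 members with th2 had tph1a (19.7%), close to the 23.0% of all members. In WT, 3 of the 83 members with th2 had tph1a, against 66 of all 264 members. Red blood cell barcodes reached 2 UMIs of th2, tph1a or ddc in at most 0.662% for any of these genes. They were shallower, with median depths of 1461 UMIs in CCK1/2-KO and 1453 in WT, against 5558.5 and 5949 in the set. This share therefore cannot show how often stray RNA reaches 2 UMIs at the depth of the set. In the set, 73.5% of CCK1/2-KO and 65.8% of WT members were GABAergic only. Of the 15 named genes, 12 had more than 2-fold the CPM in this set than in the remaining members in both libraries, and of all 122 higher genes 85 did. Otoferlin had a UMI in 91 of the 98 CCK1/2-KO and 132 of the 149 WT members of the set, and grm6a in 77 and 118. Most barcodes with 2 or more UMIs of either gene were not members. For otofa, 87 of 644 in CCK1/2-KO and 124 of 597 in WT were, and for grm6a 78 of 466 and 117 of 467. Members of the set were not compared with ccka-free barcodes carrying th2, tph1a or ddc. These genes are therefore not shown to be particular to the members. The same set carried lhx9, pou3f1, drd2a, slc18a2 and the granin chgb, the last at 4280 CPM in CCK1/2-KO and 4826 CPM in WT.

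The remaining members, 84 in CCK1/2-KO and 110 in WT, carried other genes at high levels, each in part of the barcodes. They are a mixed remainder, and 6 in CCK1/2-KO and 17 in WT failed the neuronal rule. Astroglial RNA was high in them, with fabp7a at 738 CPM in CCK1/2-KO and 1747 CPM in WT and slc1a2b at 1191 and 1437 CPM. The part of glial RNA in the levels below was not tested. Relative to the th2, tph1a or ddc set, 249 of 2764 measured genes (9.01%) were higher and 247 (8.94%) lower in both libraries. Ranked by the weaker library, the largest named ratio was that of cyp26b1, which breaks down retinoic acid, at 2406 CPM in the remaining CCK1/2-KO members and 1122 CPM in the WT ones, against 29.6 and 7.99 CPM in the set. The binding protein crabp1a followed, at 2147 and 1845 CPM, against 56.0 and 21.0 CPM. In the nhlh2 set described later, crabp1a stood at 743 CPM in CCK1/2-KO and 62.1 CPM in WT, and cyp26b1 at 586 and 15.5 CPM. In CCK1/2-KO both genes were thus not particular to the remaining members. Peptide genes of these members were uts1, of the corticotropin-releasing family, at 2039 CPM in CCK1/2-KO and 437 CPM in WT, crhb at 645 and 322 CPM, penkb at 556 and 693 CPM, sst1.1 at 278 and 461 CPM, and sst1.2 at 494 and 238 CPM. The GABA gene gad1b stood at 590 and 370 CPM here, against 6.23 and 84.9 CPM in the set. GABAergic markers alone were found in 66.7% of the CCK1/2-KO and 57.3% of the WT remaining members. A gad1b UMI was found in 58.3% of the CCK1/2-KO and 48.2% of the WT remaining members. Each of the retinoic acid and peptide genes named here was in a minority of barcodes. A cyp26b1 UMI was found in 27.4% of CCK1/2-KO and 29.1% of WT remaining members, and a crabp1a UMI in 33.3% and 40.9%. For uts1 the shares were 20.2% and 7.27%, and for crhb 23.8% and 10.0%.

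**Figure D4:**
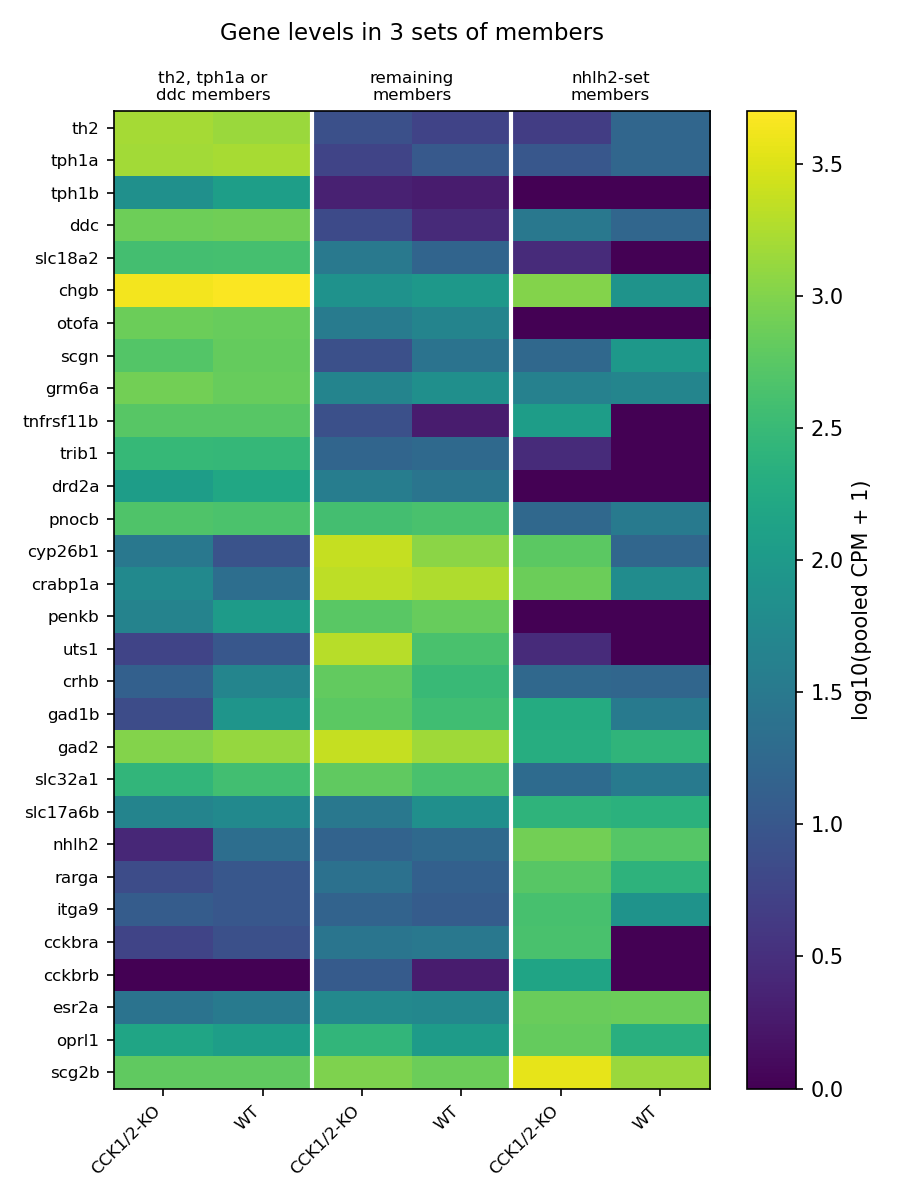
Pooled level of 30 genes, as log10 of CPM + 1, in the 3 sets of members with CCK1/2-KO left of WT in each. The th2, tph1a, ddc, otofa and grm6a levels are high in the first pair of columns, and cyp26b1, crabp1a and penkb in the second. In the CCK1/2-KO column of the third pair cyp26b1 and crabp1a also reach 586 and 743 CPM. In the third pair nhlh2 is high in both columns, at 808 CPM in CCK1/2-KO and 527 CPM in WT. There cckbra and cckbrb are high in the CCK1/2-KO column alone. The WT column of that pair rests on 5 members. Genes that define a set are high in it by construction.

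Between the genotypes, 128 of 6061 measured genes were past 2-fold higher in CCK1/2-KO members, which is 2.11%, and 98 lower, which is 1.62%. The median over these genes was 0.01. The CCK receptor gene cckbra was among the higher genes. It had 263 UMIs in 35 of 213 CCK1/2-KO members (16.4%) and 39 UMIs in 11 of 264 WT members (4.17%), which makes 129 and 17.9 CPM, and on the log2 scale CCK1/2-KO was 2.84 (2.36 to 3.37) higher. Ccka-free neurons had 20.6 CPM in CCK1/2-KO and 22.5 CPM in WT, so ccka-free neurons showed no such gap. The second receptor gene of this type, cckbrb, had 86 UMIs in 26 CCK1/2-KO members and 1 UMI in 1 WT member. The third, cckar, had 1 UMI in CCK1/2-KO members and 0 in WT members, which allows up to 3 UMIs, too few to show a difference. Other higher genes were nhlh2, a neuronal transcription factor of the hypothalamus (220 CPM in CCK1/2-KO, 34 in WT, log2 2.69), the retinoic acid receptor rarga (155 and 17.9 CPM, 3.11), the integrin itga9 (121 and 12.0 CPM, 3.34), the activin inhibitor fsta (150 and 13.8 CPM, 3.44) and esamb (61.2 and 2.76 CPM, 4.47). The collagen gene col5a2a had 119 UMIs in CCK1/2-KO members and 1 in a WT member. SEZ6, GAB2 and si:busm1-57f23.1 had log2 ratios of 2.78, 2.68 and 2.81. From the fixed lists, the estrogen receptor esr2a (1.81), the leptin receptor lepr (1.79), the opioid receptors oprl1 (1.55) and oprm1 (1.2), tbx3a (1.82), sox14 (2.57), th (1.38) and scg2b (1.17) were higher too.

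Many of these genes met in the same barcodes. A set with 2 or more UMIs of at least 2 of nhlh2, rarga, itga9 and cckbra, genes picked because they differed between the libraries, held 31 CCK1/2-KO members (14.6%) and 5 WT members (1.89%). Of the 128 higher genes, 99 had their highest CPM in these CCK1/2-KO members, and 29 remained called when the set was left out. The set was drawn from genes higher in CCK1/2-KO and lay mostly in that library, so both counts follow in part from its choice. The same share over all measured genes was not computed, and nothing is read from these counts. In the CCK1/2-KO set, esr2a was found in 31 of 31 members, oprl1 in 31, lepr in 27, cckbra in 25 and cckbrb in 21. Its members carried glutamatergic and GABAergic markers together in 20 of 31, with slc17a6b in 25, gad1b in 20 and gad2 in 19. They were deep, with a median of 18617 UMIs, against 5558.5 in the CCK1/2-KO th2, tph1a or ddc set, and Scrublet marked 3 of the 31. Over all members, double markers were left in 3 CCK1/2-KO and 5 WT barcodes once depth was made equal, and the part of mixed droplets was not tested.

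The nhlh2 set existed in both libraries when ccka was ignored, with 112 CCK1/2-KO and 70 WT barcodes. Its pooled ccka level was 1203 CPM in CCK1/2-KO and 381 CPM in WT. Since its genes were picked for being higher in CCK1/2-KO members, which ccka had chosen, the direction of this gap may follow from that choice, and nothing is read from it. Among the members of the set the log2 ratio of ccka was −0.68, the same sign as in the other sets, with 31 CCK1/2-KO and 5 WT members. Over all barcodes with 2 or more esr2a UMIs, ccka stood at 434 CPM in CCK1/2-KO and 472 CPM in WT. Members made up 27.7% of the CCK1/2-KO and 7.14% of the WT barcodes of the set. A cckbrb UMI was present in 25 CCK1/2-KO barcodes of the set, 24 of which had ccka, and in 4 WT barcodes, 0 of which did. Over all barcodes with a cckbrb UMI, 37 of 116 in CCK1/2-KO (31.9%) and 12 of 64 in WT (18.8%) had ccka. In the th2, tph1a or ddc set ccka stood at 354 CPM in 1103 CCK1/2-KO barcodes and 996 CPM in 888 WT barcodes, a log2 ratio of −1.49 (−1.47 without the 3 highest), with 8.88% and 16.8% members. Among the other neurons it was −1.58 (−1.24 without the 3 highest). The genes th2, tph1a and ddc were higher in ccka-chosen members, more so in WT, so the gap in their set may also follow in part from that choice.

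**Figure D5:**
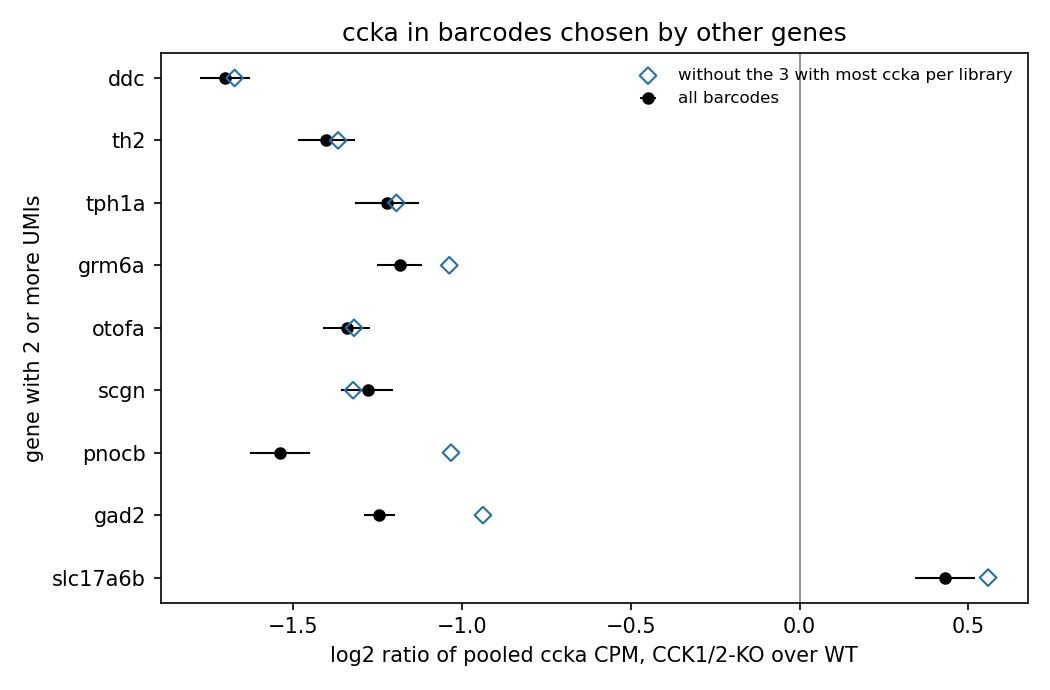
Log2 ratio of pooled ccka CPM, CCK1/2-KO over WT, in all barcodes with 2 or more UMIs of the gene on the vertical axis, whether or not they were members. Black points are all such barcodes with exact intervals for counting error, and open diamonds leave out the 3 with the most ccka in each library. The ratio is −1.70 for ddc, −1.40 for th2 and −1.25 for gad2, and 0.43 for slc17a6b, whose barcodes include members of the nhlh2 set.

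The genes lower in CCK1/2-KO members were led by the brain aromatase cyp19a1b, a radial glial enzyme of estrogen synthesis, at 54.8 CPM in CCK1/2-KO and 1183 CPM in WT members (log2 −4.43). The same direction held in ccka-free neurons, at 95.7 and 650 CPM. Leaving cyp19a1b out, at least 1% of UMIs came from astroglial genes in 14 CCK1/2-KO members (6.57%) and 24 WT members (9.09%), and 5 astroglial genes, cyp19a1b included, were called lower in CCK1/2-KO, among them slc1a3b (−1.81) and fabp7a (−1.09). The part of glial RNA in these ratios was not tested. The others named were rasd3 (−2.77), grb10a (−2.30), zgc:64022 (−2.23), rap1gap2b (−2.02), porb (−1.78), fgfrl1a (−1.81) and the hypothalamic factors hmx3a (−1.90) and six3b (−1.90). Of the 98 lower genes, 60 had their highest CPM in the remaining WT members and 29 in the WT th2, tph1a or ddc set. The same shares over all measured genes were not computed, and nothing is read from these counts either. Within the th2, tph1a or ddc set alone, 47 of 2761 measured genes (1.7%) were higher in CCK1/2-KO and 65 (2.35%) lower. There rasd3 stood at 45.1 CPM in CCK1/2-KO and 202 CPM in WT, rap1gap2b at 131 and 494 CPM, and the calmodulin-binding pcp4a at 52.9 and 249 CPM. Among the higher genes, ptgdsb.2 stood at 374 and 60.9 CPM and the RNA-binding qki2 at 131 and 28.0 CPM. Some astroglial genes were among the higher ones too, the other direction from the 5 called over all members: slc1a2b stood at 694 CPM in CCK1/2-KO and 320 CPM in WT, glula at 431 and 191 CPM, and hopx at 188 and 66.9 CPM. Of the amine genes in the set, ddc stood at 755 and 795 CPM and slc18a2 at 394 and 404 CPM in CCK1/2-KO and WT, th2 at 1608 and 1389, tph1a at 1527 and 1632, and th at 131 and 38.9 CPM. The tph1b gene had 45 UMIs in the CCK1/2-KO and 118 UMIs in the WT members of the set. The th gap came from 84 and 39 UMIs, in 19 members of the set in each library.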

How the data were processed

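The deposited files hold UMI counts per gene and barcode for 1 CCK1/2-KO and 1 WT library. The authors made these counts with CellRanger 5.0.0 per the study's methods, which also name Seurat 4.1.0; the submitters' processing notes name the GRCz11 build. The counts are whole numbers with no normalization, and 500 UMIs was the lowest total of a barcode. Of 32057 features, 11398 had no name of their own, and 8368 of these were named from a table of gene identifiers. The gene lists hold 525 entries, of which 485 were found.

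Counts were summed over barcodes and scaled to CPM, in Python 3.11.15 with numpy 2.4.6, scipy 1.17.1 and pandas 2.3.3. Doublets were scored with the Scrublet function of scanpy 1.11.5 and kept, marking the highest scores at 0.8% per 1000 barcodes. Genes needed 100 UMIs in members and ccka-free neurons of each library, or over the members of both libraries. ccka was left out. Ratios carry exact Poisson 95% intervals, which treat each UMI as a separate draw and are too narrow where few barcodes hold many UMIs. No p-value was computed. The computation was checked on simulated counts.

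Named genes were the 15 highest and 10 lowest against ccka-free neurons, ranked by the weaker library, with a UMI in at least 10% of the members (higher) or ccka-free neurons (lower), and the 10 highest and 10 lowest between genotypes with no 3 barcodes holding over 50% of the UMIs. From lists, up to 6 genes of highest CPM, all receptors of CCK and all processing genes were eligible. Other genes named were chosen after their values were seen. The members and lists were chosen with earlier results of these data known. The alternatives were other limits for members, depth, doublets, shared barcodes, added CPM, gene minimum and scaling.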

Additional observations from a re-analysis of the deposited data

How the results depend on the processing

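No paired analysis was possible because each genotype has 1 library. With members asked to hold 20 ccka UMIs and 0.2%, the ratio of member shares was 0.489, the ccka log2 ratio −1.03, the genes higher than ccka-free neurons 69, and those lower in CCK1/2-KO 168. The ccka log2 ratio was −0.92 without the 3 highest members of each library. Adding 20 CPM in place of 5 left 55 genes higher and 173 lower than in ccka-free neurons, and 74 higher and 38 lower in CCK1/2-KO. A minimum of 20 UMIs per gene gave 278 higher and 274 lower in CCK1/2-KO. Setting all members against all barcodes with 0 ccka UMIs gave 189 genes higher and 821 lower. A class limit of 5 UMIs gave GABAergic markers alone in 48.8% of CCK1/2-KO and 51.1% of WT members. The following were chosen after seeing the data. GABAergic-only members gave 51 genes higher and 41 lower in CCK1/2-KO. Without the nhlh2 set the ccka log2 ratio was −1.18 and 51 genes were higher; cckbra turned to −0.095, nhlh2 to −1.13 and GAB2 to −0.066. Within the th2, tph1a or ddc set 47 genes were higher and 65 lower, and rarga (−0.53), cckbra (−0.58), nhlh2 (−3.75), si:busm1-57f23.1 (−0.10), SEZ6 (−0.82), GAB2 (−1.94) and fgfrl1a (1.46) turned. There six3b had 3 UMIs in CCK1/2-KO and 0 in WT, and col5a2a 0 and 1, also against their direction over all members, and esamb had 0 in both. A gene with 0 UMIs in a library gave no ratio and is not in the counts that follow. Leaving barcodes with nhlh2, rarga and cckbra out of both lowers these genes by construction; the cause of the other turns was not tested. Among barcodes with 2 or more UMIs of a gene and not chosen by ccka, the ccka log2 ratio was −1.40 for th2, −1.22 for tph1a, −1.70 for ddc and −1.25 for gad2. The sign was not the same for every gene: the ratio was 0.003 for th, 0.43 for slc17a6b, 1.14 for nhlh2, 0.64 for rarga and 1.62 for itga9. The genes th2, tph1a and ddc were higher in ccka-chosen members, more so in WT, so their ratios may follow in part from that choice. Of the 755 ratios of named genes that could be formed under the alternatives, 745 kept their direction. Neither the added CPM nor the gene minimum enters these ratios, so those alternatives only repeated the main values. The named genes were also the extremes of the same barcodes, so this count does not measure how firm they are. Depth limits cckbrb and cckar, which rest on few UMIs, and the WT nhlh2 set, which rests on 5 members.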

Other observations

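Of 31 measured genes of the neuropeptide list, 4 were past 2-fold higher in CCK1/2-KO members and 8 lower, against 2.11% and 1.62% of all measured genes. The list also holds genes that are not neuropeptides, and nxph1 is counted among the higher and cbln1 among the lower. Among the lower, penka stood at 35.8 CPM in CCK1/2-KO and 308 CPM in WT in the th2, tph1a or ddc set. It had a UMI in 9 of 98 and 29 of 149 members there. In the remaining members penka ran the other way, at 235 and 180 CPM. Some other peptide genes differed between the libraries through very few members. The pituitary adenylate cyclase-activating peptide gene adcyap1b stood at 218 CPM in CCK1/2-KO and 1702 CPM in WT members, with most of the WT UMIs in 3 barcodes. For kiss2, the kisspeptin gene, the values were 22.5 and 239 CPM, with 79.8% of the WT UMIs in 3 barcodes. The peptide YY gene pyya ran the other way, at 291 CPM in CCK1/2-KO and 23.0 CPM in WT, with 95.6% of the CCK1/2-KO UMIs in 3 barcodes. The values of adcyap1b, kiss2 and pyya describe single cells rather than the members as a group.

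Heat shock genes were high in members of both libraries. The summed list stood at 13149 CPM in CCK1/2-KO and 10404 CPM in WT members, and at 13155 and 9140 CPM in ccka-free neurons. In the th2, tph1a or ddc set hsp70l stood at 7645 CPM in CCK1/2-KO and 3306 CPM in WT, and hsp70.1 at 1627 and 789 CPM. The activity-regulated gene npas4a had a UMI in all 98 CCK1/2-KO and all 149 WT members of that set, at 3534 and 4019 CPM. The part of dissociation in these levels was not tested.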
